A study of Mus musculus with 7 samples.

Results

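The 6 genes described are the D-type cyclins Ccnd1, Ccnd2 and Ccnd3 and the cyclin-dependent kinases Cdk4, Cdk6 and Cdk2, measured in blood stem cells sorted from mouse fetal liver. All probe sets annotated to these genes alone were taken, 16 of the 22626 probe sets that are not array controls, and they represent 6 of 12393 measured genes. Ccnd1 and Ccnd2 had 3 and 7 probe sets, Cdk4 had 3, and Ccnd3, Cdk2 and Cdk6 had 1 each. The family was selected on measured values, since Ccnd1 had the smallest p among genes higher in the mutant samples. The difference between the genotypes is therefore described for all 6 genes and not tested.

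D-type cyclins are made in response to mitogens and cytokines, bind Cdk4 or Cdk6, and the resulting kinases phosphorylate the retinoblastoma protein in G1. Phosphorylation releases E2F factors, which drive cyclin E and the genes of DNA replication, and Cdk2 with cyclin E or cyclin A completes the step into S phase. In mice the D cyclins can partly stand in for each other, and embryos that lack all of them, or both Cdk4 and Cdk6, die with failing fetal haematopoiesis.

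The cells came from embryonic day 14.5 embryos of crosses between TFIIAα-βnc/+ parents. In TFIIAα-βnc/nc embryos, written TFIIA nc/nc below, the large subunit of the general transcription factor TFIIA cannot be cleaved, and wild-type embryos were the controls. There were 3 TFIIA nc/nc samples, made from 2, 2 and 4 embryos, and 4 wild-type samples, made from 1, 1, 4 and 3 embryos (littermates where pooled), each on its own Affymetrix array. The sort took cells with c-Kit, Sca-1 and CD150 but without lineage antigens and was done in 2 rounds. Its lineage cocktail covered T cells, B cells, erythroid cells and granulocytes and held no endothelial antibody. The samples are biological replicates by their titles, with no batch named. The limma p-values set the difference between genotypes against the spread between samples of a genotype, moderated over all genes.

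Levels are log2 of the deposited intensities. A probe set's brightness depends on its probes, so levels are compared between arrays and not between probe sets. Arrays correlated pairwise at 0.966 to 0.991. The mean level of 8 blood stem cell markers was 6.62 to 6.95 in TFIIA nc/nc and 6.73 to 7.11 in wild type, and 5 of the 8 read lower on average in TFIIA nc/nc. Kit read 7.50 to 8.18 in TFIIA nc/nc and 7.61 to 9.06 in wild type, and Slamf1, which encodes CD150, 6.23 to 6.92 in TFIIA nc/nc and 6.12 to 6.57 in wild type. Procr differed by −0.77 (unadjusted p = 0.024, adjusted p = 0.934, limma) and Hlf by −0.49 (unadjusted p = 0.0439, adjusted p = 0.934, limma), both with overlapping groups. Mecom was dim at 2.08 to 3.15 on all arrays, and Ly6a, which encodes Sca-1, was not analysed here. Markers of other cell types varied between the sorts. The mean level of 14 endothelial markers was 6.42, 6.78 and 3.73 in TFIIA nc/nc and 6.62, 3.75, 3.95 and 3.78 in wild type, high in 2 TFIIA nc/nc arrays and 1 wild-type array, and 12 of the 14 markers read higher on average in TFIIA nc/nc. The mean of 12 macrophage markers was 3.97, 4.88 and 5.25 in TFIIA nc/nc and 4.49, 4.41, 3.03 and 3.57 in wild type. Of these, 11 read higher on average in TFIIA nc/nc. The mean of 11 liver parenchyma markers was 4.31, 4.57 and 3.28 in TFIIA nc/nc and 3.84, 3.33, 3.11 and 3.32 in wild type, and 10 of these read higher in TFIIA nc/nc. List means of erythroid, mesenchymal, megakaryocyte and mature lymphoid or granulocyte markers lay at 3.93 to 4.50, 2.79 to 3.62, 4.54 to 4.69 and 3.18 to 3.32 in TFIIA nc/nc, and at 3.66 to 4.58, 2.62 to 3.42, 4.27 to 5.11 and 3.29 to 3.42 in wild type. Xist, which marks female cells, read 9.76 to 11.40 in TFIIA nc/nc, 4.49 and 4.47 in wild-type replicates 1 and 2, and 10.72 and 10.13 in wild-type replicates 3 and 4. The 3' minus 5' signal of actin was 2.95, 2.15 and 2.99 in TFIIA nc/nc and 2.92, 2.62, 1.94 and 2.12 in wild type. In bulk samples, fewer cells of a type and less RNA per cell cannot be told apart.

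Ccnd1 was higher in the TFIIA nc/nc samples on each of its 3 probe sets, by about the same amount. Ccnd2 was moderately higher on some probe sets, Ccnd3 was near equal, and Cdk4 was lower on average without separating the genotypes. Over the 16 probe sets, 11 were higher and 5 lower in TFIIA nc/nc. The 3 TFIIA nc/nc arrays lay above all 4 wild-type arrays for 5 probe sets, 3 of Ccnd1 and 2 of Ccnd2, and below them for 0. Over all 22626 probe sets, 2.85% lay wholly above and 2.81% wholly below. By the probe set of highest mean for each gene, 2 of the 6 genes, Ccnd1 and Ccnd2, lay wholly above, against 3.23% of all genes (6.3% in either direction). None of the 6 passed an adjusted p of 0.05 in limma over all 12393 genes, where 1 gene did (0.00807%), and since the contrast chose the group these counts are a description.

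**Figure D1:**
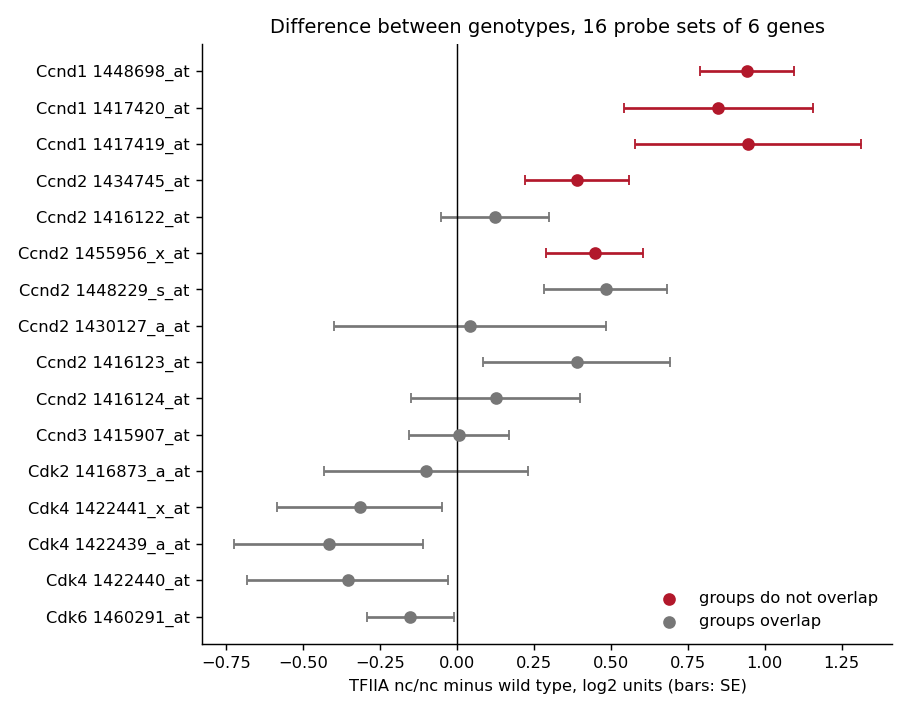
Difference in mean log2 intensity, TFIIA nc/nc minus wild type, for the 16 probe sets of the 6 genes, with limma standard errors as bars. The 3 Ccnd1 probe sets lie between 0.85 and 0.95, the Ccnd2 probe sets between 0.04 and 0.48, and the 3 Cdk4 probe sets between −0.42 and −0.32. Red points mark the 5 probe sets whose groups do not overlap.

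Ccnd1 (Entrez gene 12443) encodes cyclin D1, the D cyclin most tightly tied to mitogen signalling in many tissues. On the brightest probe set, 1448698_at, it read 7.63, 7.78 and 7.32 in TFIIA nc/nc replicates 1 to 3, against 6.59, 6.67, 6.59 and 6.68 in wild-type replicates 1 to 4. The mutant arrays were all high, the wild-type arrays were almost level with each other, and a gap of 0.64 separated the groups. The difference of 0.94 (SE 0.15) corresponds to 1.92-fold higher intensity in TFIIA nc/nc.

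On probe set 1417420_at Ccnd1 read 7.10, 7.18 and 7.10 in TFIIA nc/nc, against 6.78, 6.68, 5.37 and 6.28 in wild type, a difference of 0.85 (SE 0.31). On probe set 1417419_at it read 6.84, 6.39 and 6.38 in TFIIA nc/nc, against 6.25, 6.08, 4.56 and 5.47 in wild type, a difference of 0.95 (SE 0.37). The groups did not overlap on either, with gaps of 0.32 and 0.14. These probe sets placed wild-type replicates 3 and 4 well below replicates 1 and 2, an order that 1448698_at did not show. Replicates 3 and 4 were pools with high Xist and the lowest actin 3' minus 5' signals, and replicates 1 and 2 were single embryos with low Xist. The part of pooling, embryo sex and RNA quality in this order was not tested. The spread among wild-type arrays was 0.64 and 0.76 (SD, n = 4) on them and 0.05 on 1448698_at. The centred profiles of 1417420_at and 1417419_at differed by a root mean square of 0.19 over the 7 arrays, and each differed from 1448698_at by 0.43 and 0.52. The size of the difference in these 2 probe sets rested partly on wild-type replicate 3, the lowest array on both. Without it the differences were 0.55 and 0.60, while that of 1448698_at was 0.93.

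**Figure D2:**
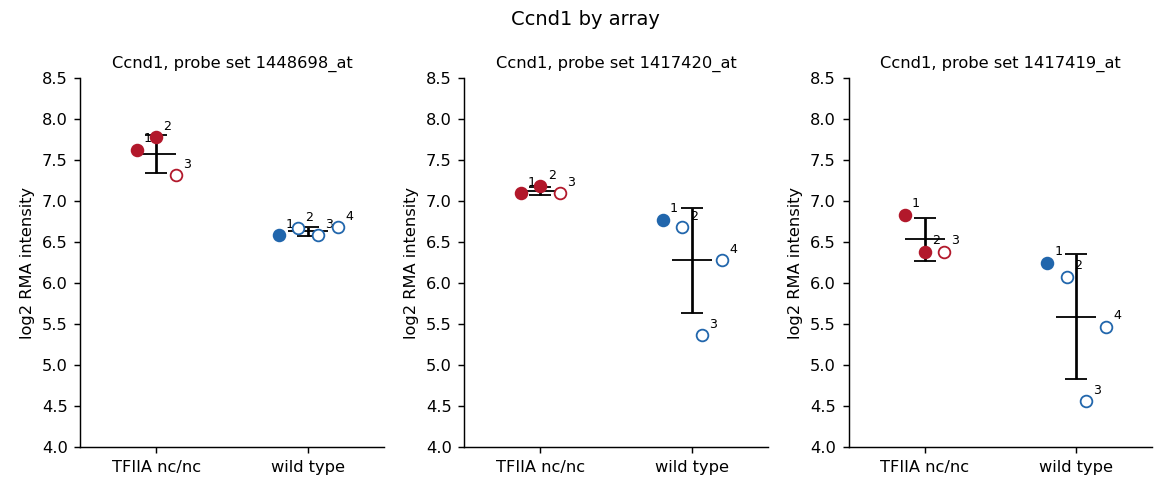
Log2 intensity of the 3 Ccnd1 probe sets on each array, TFIIA nc/nc left and wild type right, with the mean and SD of each group in black and the replicate number beside each point. Filled points are arrays with high endothelial markers. The groups do not overlap in any panel, and wild-type replicate 3 reads 5.37 and 4.56 on the dimmer probe sets against 6.59 on 1448698_at.

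Endothelial and liver markers varied between arrays, and the Ccnd1 values are given beside them. On 1448698_at, wild-type replicate 1, with an endothelial mean of 6.62, read 6.59, and the wild-type arrays with low endothelial markers read 6.67, 6.59 and 6.68. TFIIA nc/nc replicate 3, with an endothelial mean of 3.73, read 7.32, below the other mutant arrays and above every wild-type array. Among the 4 arrays with low endothelial markers the difference was 0.67, a value that rests on 1 TFIIA nc/nc sample, and with the endothelial mean as a covariate 0.88. Of 11 liver parenchyma markers, albumin, Alb, read 6.62, 7.44 and 2.28 in TFIIA nc/nc and 6.12, 2.74, 1.84 and 2.52 in wild type, again high in wild-type replicate 1. Afp was also high there, at 6.58, but not every liver marker was. Apoa1 read 4.11, 4.32 and 2.94 in TFIIA nc/nc and 2.97, 2.80, 2.77 and 2.88 in wild type. The macrophage mean was lowest in wild-type replicates 3 and 4, the arrays lowest for Ccnd1 on the dimmer probe sets. Single macrophage markers differed in this. Lgmn was lowest on these arrays. It read 5.43, 6.03 and 5.03 in TFIIA nc/nc, against 4.55, 3.93, 2.73 and 3.47 in wild type, and the groups did not overlap. Cd68, the 1 macrophage marker of 12 that read lower on average in TFIIA nc/nc, was lowest in TFIIA nc/nc replicate 1, at 2.30. Mrc1 was high on the arrays with high endothelial markers. The part of endothelial cells, liver parenchyma and macrophages in the Ccnd1 levels was not tested.

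Ccnd2 (Entrez gene 12444) encodes cyclin D2, a cytokine-responsive D cyclin of blood cells. All 7 probe sets read higher on average in TFIIA nc/nc, but the size ranged widely, 0.04 to 0.48. On the brightest, 1434745_at, Ccnd2 read 9.08, 9.32 and 9.29 in TFIIA nc/nc, against 8.52, 9.06, 8.79 and 8.99 in wild type, a difference of 0.39 (SE 0.17). The groups were separated by only 0.02, less than the spread within either. Probe set 1455956_x_at, of a kind that may also bind related transcripts, read 8.88, 8.78 and 9.17 in TFIIA nc/nc, against 8.41, 8.66, 8.35 and 8.57 in wild type, with a gap of 0.12 and a difference of 0.45 (SE 0.16).

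The other 5 Ccnd2 probe sets overlapped between the genotypes. Probe set 1448229_s_at differed by 0.48 (SE 0.20), with wild-type replicate 2 at 8.85 inside the TFIIA nc/nc range of 8.65 to 9.05. Probe sets 1416123_at and 1416122_at differed by 0.39 (SE 0.30) and 0.12 (SE 0.18). The dim 1416124_at differed by 0.13 (SE 0.27). Probe set 1430127_a_at, which covers several Ccnd2 transcripts, read 7.19, 7.97 and 8.13 in TFIIA nc/nc, against 6.48, 7.69, 8.33 and 8.38 in wild type. Its highest arrays were wild-type replicates 3 and 4, and its difference was 0.04 (SE 0.44).

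Wild-type replicate 1, made from 1 embryo and with high endothelial markers, was the lowest array on 6 of the 7 Ccnd2 probe sets. Without it the differences were 0.29 for 1434745_at, 0.42 for 1455956_x_at and 0.41 for 1448229_s_at. They were 0.01 for 1416122_at, 0.09 for 1416123_at, −0.06 for 1416124_at and −0.37 for 1430127_a_at. Thus 3 probe sets stayed higher in TFIIA nc/nc, and the other 4 lay near 0 or below it.

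**Figure D3:**
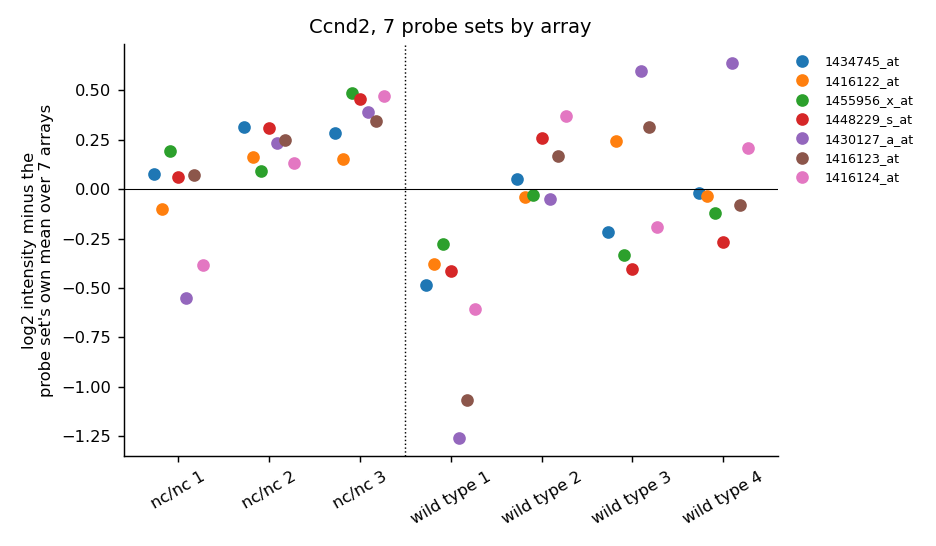
Log2 intensity of each of the 7 Ccnd2 probe sets on each array, minus the probe set's own mean over the 7 arrays, TFIIA nc/nc arrays left of the dotted line and wild type right. Wild-type replicate 1 is low on all 7 probe sets, and 1430127_a_at stands apart from the others in wild-type replicates 3 and 4.

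Ccnd3 (Entrez gene 12445) encodes cyclin D3, a D cyclin used widely in lymphoid, erythroid and megakaryocytic cells. It read 6.94, 7.15 and 6.88 in TFIIA nc/nc, against 6.75, 6.92, 7.23 and 7.04 in wild type. The groups lay on top of each other, with a difference of 0.01 (SE 0.16). Across the D cyclins the means thus differed by 0.94, 0.39 and 0.01 on the brightest probe sets of Ccnd1, Ccnd2 and Ccnd3.

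Cdk4 (Entrez gene 12567) encodes the kinase partner of the D cyclins. Its 3 probe sets gave the same picture, low and similar in TFIIA nc/nc and in the single-embryo wild-type samples, and high in wild-type replicates 3 and 4. On 1422441_x_at Cdk4 read 8.87, 9.11 and 8.85 in TFIIA nc/nc, against 8.76, 8.88, 9.89 and 9.50 in wild type, a difference of −0.32 (SE 0.27). On 1422439_a_at it read 8.49, 8.77 and 8.60 in TFIIA nc/nc, against 8.51, 8.58, 9.88 and 9.17 in wild type, a difference of −0.42 (SE 0.31). On 1422440_at it read 7.87, 8.46 and 8.19 in TFIIA nc/nc, against 7.93, 8.04, 9.28 and 8.86 in wild type, a difference of −0.36 (SE 0.33). The groups overlapped on all 3, and wild-type replicates 3 and 4 stood above every other array on all 3. The centred profiles of the 3 probe sets differed pairwise by only 0.11 to 0.13. Of these, 1422441_x_at is of the kind that may also bind related transcripts.

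Cdk2 (Entrez gene 12566), the kinase of cyclins E and A, read 7.35, 7.38 and 7.41 in TFIIA nc/nc, against 6.56, 7.30, 8.10 and 7.94 in wild type. The TFIIA nc/nc arrays were nearly identical, with an SD of 0.03 against 0.70 in wild type, and sat in the middle of the wild-type range. The difference was −0.10 (SE 0.33). As for Cdk4, wild-type replicates 3 and 4 were the highest arrays. Single arrays moved both averages. Without wild-type replicate 3 the differences were 0.11 for Cdk2 and −0.11 for Cdk4 on 1422441_x_at, and without wild-type replicate 4 they were 0.05 and −0.24. Without wild-type replicate 1 they were −0.41 and −0.48.

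Wild-type replicates 3 and 4 were pools of 4 and 3 embryos, had high Xist and had the lowest actin 3' minus 5' signals of the 7 arrays, 1.94 and 2.12, with TFIIA nc/nc replicate 2 next at 2.15. Leaving out the single-embryo wild-type samples moved the differences to −0.75 (SE 0.19) for Cdk4 and −0.65 (SE 0.16) for Cdk2. With Xist as a covariate they were −0.79 and −0.67. TFIIA nc/nc replicate 3, also a pool of 4 embryos with high Xist, read 8.85 for Cdk4 on 1422441_x_at and 7.41 for Cdk2. In wild type the single-embryo samples were also the samples of low Xist. Both settings therefore set the same wild-type samples apart, and pooling and embryo sex cannot be told apart. The part of pooling, embryo sex and RNA quality in these levels was not tested. The mean level of 18 replication genes was 8.13, 8.28 and 8.34 in TFIIA nc/nc and 7.97, 8.19, 8.20 and 8.36 in wild type. As for Cdk2, wild-type replicate 1 was the lowest array. Wild-type replicate 4 was the highest, while wild-type replicate 3 lay below TFIIA nc/nc replicates 2 and 3. The relation of replication genes to the Cdk4 and Cdk2 levels was not tested.

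**Figure D4:**
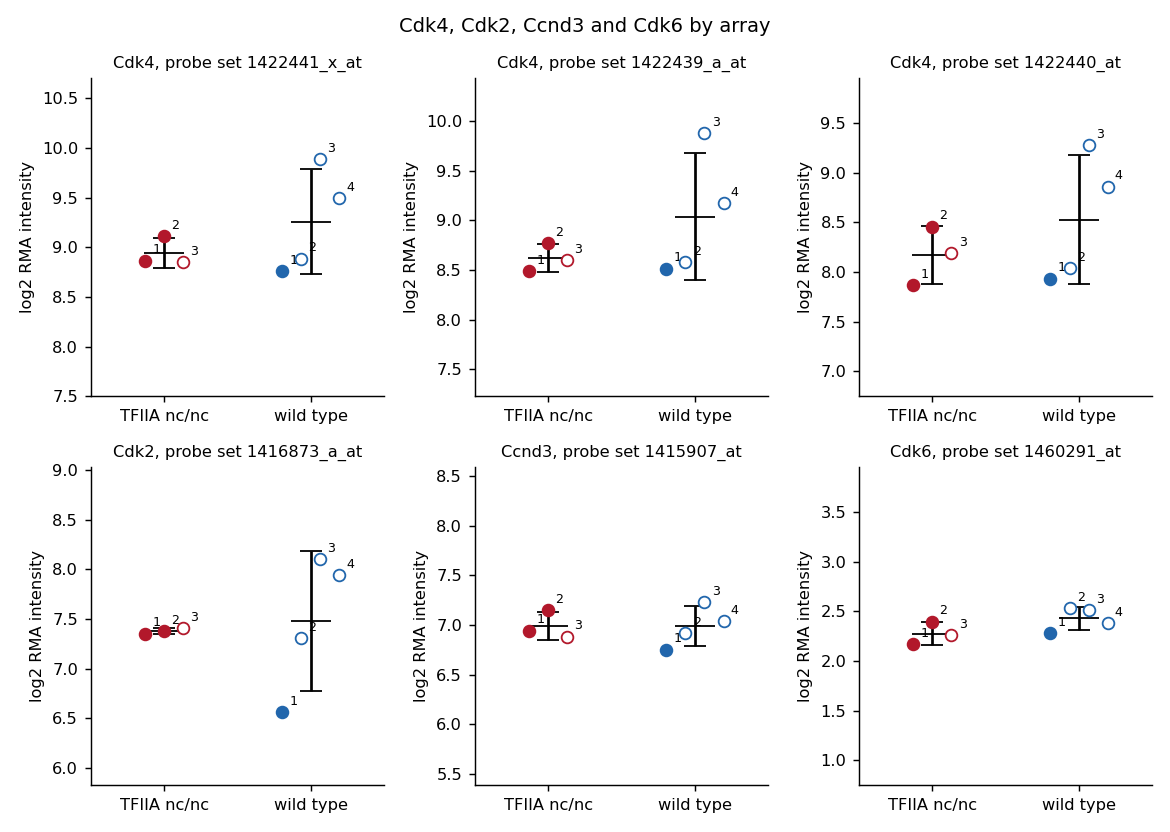
Log2 intensity of the probe sets of Cdk4, Cdk2, Ccnd3 and Cdk6 on each array, TFIIA nc/nc left and wild type right, with group mean and SD in black and replicate numbers beside the points. Filled points are arrays with high endothelial markers, and every panel spans the same range in log2 units. Wild-type replicates 3 and 4 are the highest arrays for Cdk4 and Cdk2.

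Cdk6 (Entrez gene 12571) encodes the other kinase partner of the D cyclins, which has a large role in blood progenitors. Its only probe set, 1460291_at, read 2.17, 2.40 and 2.26 in TFIIA nc/nc, against 2.29, 2.53, 2.52 and 2.38 in wild type. Between 15.7% and 29.5% of all probe sets lay below it on an array, and array medians were 3.69 to 3.82, so this probe set gave little signal in any sample and its difference of −0.15 (SE 0.14) says little about the transcript.

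TFIIA acts at promoters, where it steadies the TATA-binding protein, so the upstream sequences of the kinases are shown beside their levels. RefSeq windows of assembly GRCm38.p6 were held for 4 of the 6 genes, Cdk4, Cdk2, Cdk6 and Ccnd3, the last with 2 starts. No window was held for Ccnd1 or Ccnd2, so their promoters were not searched. The 250 bases before each start were searched on both strands for the TATA box TATAAA, the E-box CACGTG bound by Myc proteins, GCGGGAA as found in many E2F sites, the GC box GGGCGG and the box CCAAT. The Cdk4 sequence is shown for its E-boxes, that of Cdk2 for its E2F letters and that of Cdk6 for its TATAAA, and capitals mark these motifs. They are chr10:127063285-127063534 (plus strand) for Cdk4, chr10:128705052-128705301 (minus strand) for Cdk2 and chr5:3343643-3343892 (plus strand) for Cdk6, each 5′ to 3′.
Cdk4: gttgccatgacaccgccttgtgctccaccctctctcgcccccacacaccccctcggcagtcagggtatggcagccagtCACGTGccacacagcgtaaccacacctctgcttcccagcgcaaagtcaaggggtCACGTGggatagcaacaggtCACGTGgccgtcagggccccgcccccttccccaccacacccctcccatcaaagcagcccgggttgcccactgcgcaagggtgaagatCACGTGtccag
Cdk2: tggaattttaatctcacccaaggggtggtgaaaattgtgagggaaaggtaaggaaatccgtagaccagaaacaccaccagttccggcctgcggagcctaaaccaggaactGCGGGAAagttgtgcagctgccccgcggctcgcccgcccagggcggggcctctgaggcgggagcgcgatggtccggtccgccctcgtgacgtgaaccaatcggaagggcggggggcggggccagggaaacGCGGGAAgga
Cdk6: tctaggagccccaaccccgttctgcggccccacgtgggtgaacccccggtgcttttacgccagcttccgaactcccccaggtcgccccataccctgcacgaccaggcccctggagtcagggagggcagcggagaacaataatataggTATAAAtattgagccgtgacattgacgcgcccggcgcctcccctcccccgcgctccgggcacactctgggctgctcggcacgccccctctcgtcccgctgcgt

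Cdk4 held CACGTG 4 times, beginning 172, 118, 98 and 11 bases before the start. Of 32851 mouse starts, 6.02% held CACGTG and 7 starts (0.0213%) held it 4 times or more. Cdk2 held GCGGGAA 2 times, 140 and 10 bases before the start, and 3.82% of starts held it. Among the 5 starts searched, which include none of Ccnd1 or Ccnd2, TATAAA was found in Cdk6 alone, 103 bases before the start. It was held by 12.4% of all starts. The Cdk6 window also held 1 CACGTG, left in lower case. GGGCGG was found 5 times for Cdk2, 1 time for Cdk4, and 2 times and 1 time for the Ccnd3 starts. Of all starts, 32.7% held it and 4.09% held it 4 times or more. CCAAT was found 1 time each for Cdk2 and for 1 Ccnd3 start, against 33.8%. A match describes the letters of a window and not a bound site.

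The other genes of the pathway gave no call. Of 134 genes listed around the D cyclins and their kinases, 121 were measured. In TFIIA nc/nc 72 read higher and 49 lower, and over all 12393 genes 5955 read higher and 6438 lower. The median difference was 0.07 against −0.01 over all genes. None passed in limma over all genes after Benjamini-Hochberg adjustment, and all genes named from the lists had an adjusted p of 0.934 or more. The unadjusted limma p was under 0.05 for 3 higher and 2 lower genes, 5 of 121, against 4.65% of all genes. The groups lay apart for 5 higher and 2 lower of the 121, against 3.23% and 3.07% of all genes.

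Cyclins E and A, which take over from the D cyclins, were 3 higher and 1 lower of 4 measured, with a median difference of 0.22. Ccne1 read 6.08, 6.15 and 6.42 in TFIIA nc/nc, against 5.74, 5.93, 6.09 and 5.98 in wild type, a difference of 0.28 (SE 0.15), and the groups overlapped by wild-type replicate 3 alone. Ccne2 differed by 0.26. Ccna2 differed by 0.18 on its brightest probe set, where the groups overlapped, and by 0.32 on its other bright probe set, where every TFIIA nc/nc array lay above wild type. Of 15 other cyclins 11 were higher, with a median of 0.08. Ccng2, a cyclin raised in resting cells, was below wild type on every TFIIA nc/nc array of its brightest probe set, at 7.03, 6.88 and 7.17 against 7.64, 7.51, 7.23 and 7.68 (difference −0.49, SE 0.16, unadjusted p = 0.0139, adjusted p = 0.934, limma). On its dimmer probe set the difference was −0.59 and the groups overlapped. Ccnj was above it on every TFIIA nc/nc array, at 4.06, 4.07 and 4.51 against 3.45, 3.75, 3.12 and 4.05 (difference 0.62, SE 0.23, unadjusted p = 0.025, adjusted p = 0.934, limma). Ccnl1, a cyclin of splicing kinases, differed by 0.28.

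Of 11 other cyclin-dependent kinases 6 were higher, with a median of 0.07, and Cdk18, Cdk8 and Cdk12 differed by −0.54, 0.32 and 0.55. Among 7 genes of kinase activation, 5 were lower, with a median of −0.16. Cdc25b, a phosphatase that activates these kinases, differed by −0.40, Pkmyt1, an inhibitory kinase, by −0.21, and Mnat1, the assembly factor of the activating kinase, by 0.20. Of the 7 INK4 and CIP/KIP inhibitors 4 were higher, with a median of 0.23. Cdkn1c, which encodes p57 and is abundant in resting stem cells, read 7.32, 7.52 and 6.99 in TFIIA nc/nc, against 7.28, 7.06, 6.41 and 6.33 in wild type (difference 0.51, SE 0.26). Cdkn1b, which encodes p27, differed by −0.44 and Cdkn2d, an INK4 inhibitor of Cdk4 and Cdk6, by −0.34. All 3 overlapped between the groups.

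Among the substrates and outputs of the kinases, genes differed in both directions and 0 passed the adjusted threshold in limma, with 2 at an unadjusted p under 0.05, Orc1 and Ndc80. Of 10 RB family and E2F genes 6 were higher, with a median of 0.07. E2f8, a repressor among the E2F factors, lay apart, with every TFIIA nc/nc array above the highest wild-type array at 7.95 (difference 0.23, SE 0.14). Rb1, which encodes the retinoblastoma protein, its relative Rbl2, which encodes p130, and E2f3 differed by −0.46, −0.52 and 0.24 with overlapping groups. Of 18 E2F-driven replication genes 13 were higher, with a median of 0.07. Orc1, a subunit of the origin recognition complex, lay apart (difference 0.39, SE 0.16, unadjusted p = 0.0349, adjusted p = 0.934, limma), and Tyms and Tk1 differed by 0.45 and −0.30. Of 18 mitosis genes 12 were higher, with a median of 0.12. Ndc80, a kinetochore gene, lay apart (difference 0.34, SE 0.14, unadjusted p = 0.0444, adjusted p = 0.934, limma), and Bub1, Nusap1 and Kif23 differed by 0.34, −0.26 and 0.25.

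Genes upstream of the D cyclins and of their turnover showed no common direction. Of 18 upstream genes 8 were higher and 10 lower, with a median of −0.02. Egr1, an immediate early factor, read 5.81, 5.65 and 5.08 in TFIIA nc/nc, against 5.90, 4.36, 3.79 and 3.44 in wild type (difference 1.14, SE 0.51), with wild-type replicate 1 the highest array. Mycn, a Myc family factor of blood stem cells, read 8.96, 9.22 and 9.36 in TFIIA nc/nc, against 9.06, 9.68, 10.03 and 9.74 in wild type (difference −0.45, SE 0.23). Junb was dim and lay apart, at 2.28, 2.60 and 2.42 against 3.01, 2.80, 3.46 and 2.91 (difference −0.62, SE 0.19, unadjusted p = 0.00886, adjusted p = 0.934, limma). Of 13 turnover genes 7 were higher and 6 lower, with a median of 0.02. Fbxw8 and Fbxo4, which direct cyclin D1 to degradation, differed by −0.35 and 0.45, and Fzr1 by −0.56.

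**Figure D5:**
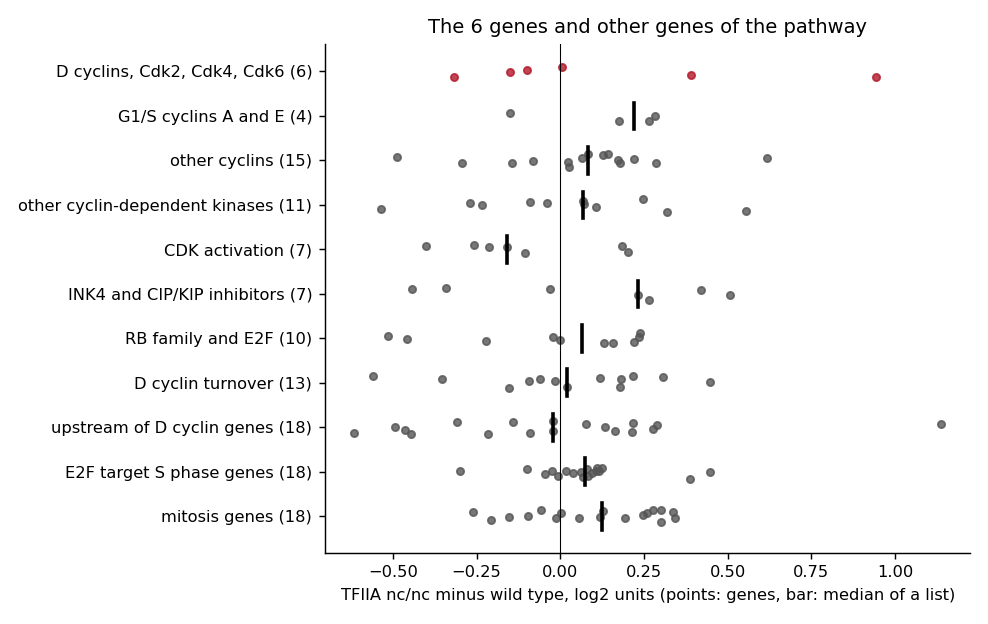
Difference in mean log2 intensity, TFIIA nc/nc minus wild type, for the 6 genes in red and for the genes of 10 lists of the same pathway in grey, with the number of genes in parentheses and the median of each list as a bar. List medians lie between −0.16 and 0.23, and Egr1 at 1.14 is the only listed gene beyond Ccnd1 at 0.94.

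Genes whose pattern over the 7 arrays was closest to each of the 6 were found by the root mean square difference of centred log2 levels. For Ccnd1 on 1448698_at these were Bcl2l2, a survival protein of the BCL2 family, at 0.17, Eogt, an O-GlcNAc transferase of the secretory pathway, at 0.19, and Apom, a lipid carrier, at 0.19. Next were Aen, a nuclease induced by p53, at 0.20 and C1galt1, which builds O-glycans, at 0.21, against a median of 0.54 over all genes. The arrays of all 5 lay apart between the genotypes, which follows from the likeness to Ccnd1. Only Aen was well above the array medians in both groups, at 6.98, 6.65 and 6.78 in TFIIA nc/nc and 5.96, 6.13, 6.03 and 6.20 in wild type.

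For Cdk2 the closest genes were Med6, a Mediator subunit, at 0.05 and Stat5b, a factor of cytokine signalling, at 0.09, against a median of 0.52. Med6 read 5.39, 5.34 and 5.48 in TFIIA nc/nc and 4.54, 5.20, 6.09 and 5.89 in wild type, and Stat5b 6.37, 6.38 and 6.44 and 5.73, 6.28, 7.02 and 7.12. In both, as in Cdk2, the mutant arrays were close to each other, wild-type replicates 3 and 4 were the highest arrays and wild-type replicate 1 the lowest. For Cdk4 they were the dim Kcnh7 and Prkcsh, a glucosidase subunit, both at 0.07 against a median of 0.45. For Ccnd2 they were Rabggtb at 0.05 and Aqp9 at 0.06. Ccnd3 and Cdk6 varied so little over the arrays that 38.2% and 45.0% of all genes came within 0.25 of them, so their closest genes, Syt9 and Cdk5r2, and Ecrg4 and Nisch, carry little information.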

How the data were processed

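Stem cell RNA of 3 mutant and 4 wild-type samples was amplified from the 3' end and hybridised to 1 Affymetrix array each, per the labels' protocols. Per the submitters' processing notes, the authors made the deposited values, linear intensities, with RMA in Affymetrix Expression Console. The sources used here give no version. RMA returns a value for every probe set, so differences of dim probe sets tend to be understated. Log2 was taken with no pseudocount. The 64 control probe sets were left out, and 20380 of the other 22626 probe sets named 1 gene, 691 several and 1555 none. Symbols were updated by Entrez identifier through RefSeq of GRCm38.p6 (12369 of 12393 genes matched). For each gene the probe set of highest mean was used. The comparison was fitted in R 4.3.3 with limma 3.58.1 (lmFit, eBayes) over all 7 arrays without covariates, with Benjamini-Hochberg adjustment over all genes and a threshold of 0.05. Standard errors of the 16 probe sets came from the same fit over all probe sets. The fit was tested on simulated data. Precision is limited by the number of arrays, and detection calls and scan dates were not used here.

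The genes, lists and tests were chosen with earlier results of these data known. Named genes were the 6, up to 3 of smallest p in each pathway list, and the genes of closest profile (5 for Ccnd1, 2 for the others). Rbl2 and Bub1, the genes of largest difference in their lists, were named in addition. Alternatives covered probe set choice, dim probe sets, normalization, array weights, embryos per sample, endothelial level, Xist, replicate number, moderation and each array. Plots used matplotlib 3.10.9 in Python 3.11.15.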

Additional observations from a re-analysis of the deposited data

Results flagged for a closer look

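Of 61 values examined in the wild-type group, 2 had an array far from the other 3, by a gap over range above Dixon's critical value, and chance marks about 1 group in 20. Apom read 3.09 in wild-type replicate 2, with the next array at 3.23. C1galt1 read 2.99 in wild-type replicate 3, with the next array at 3.19. Both are dim genes of small range, and no probe set of the 6 cell cycle genes was marked.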

How the results depend on the processing

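The difference of Ccnd1 was 0.67 to 0.97 over 12 alternatives and 0.84 to 1.07 without each array, lowest at 0.67 with only the arrays of low endothelial level. That of Ccnd2 was 0.29 to 0.46 without each array and was 0.041 on the probe set with the largest interquartile range, 1430127_a_at. Ccnd3 was −0.18 with only the arrays of low endothelial level and −0.07 to 0.09 without each array. With only samples of 2 or more embryos Cdk2 was −0.65 and Cdk4 −0.75, and with Xist as a covariate −0.67 and −0.79. Without each array Cdk2 was −0.41 to 0.11, Cdk4 −0.48 to −0.11 and Cdk6 −0.21 to −0.10; Cdk6 had no value among probe sets above the median. Cdk2 had either sign, at 0.15 adjusted for the endothelial mean. The 1 gene past the threshold, Galc, became 2 adjusted for embryo number, 3 with only samples of 2 or more embryos, 2 with only the arrays of low endothelial level and 1 to 3 without each array, 3 without wild-type replicate 1. It became 0 without moderation of the spread and 576 at an unadjusted p. Of the 121 pathway genes (103 among probe sets above the median level) 0 passed under each alternative run but the unadjusted p, where 5 did. Replicate numbers were shared between the genotypes, but deviations of same-numbered samples correlated at 0.38, −0.19 and 0.11, so the numbers were not taken to pair them. With the replicate block, which leaves out wild-type replicate 4, Ccnd1 differed by 0.96, Ccnd2 by 0.44, Cdk2 by 0.05 and Cdk4 by −0.24, and 1 gene passed.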
